A study of Mus musculus with 8 samples.

Results

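The genes described here are 24 genes of DNA replication, DNA repair, chromosome segregation and cell cycle control in mouse bone marrow cells that carried Hoxa9 and Meis1 retroviruses, with or without the microRNA gene Mir223. They were taken by the start of their symbols (Cdc, Cdk, Cenp, E2f, Orc, Rad, Rfc, Haus and similar) from the single-symbol probe sets of the authors' gene list, so they are 24 of 1081 such probe sets, in a list of 1264 among 28853 measured. By role, 5 act in replication (Cdc45, Orc2l, Orc3l, Pold2, Rfc3) and 4 in repair (Fancl, Rad52, Rad54b, Rad54l). Chromosome segregation holds 7 (Cdca8, Cenpi, Cenpj, Cenpn, Haus1, Haus5, Ncapd3). A further 5 are grouped here under cell cycle control (Cdc25a, Cdc34, Cdca7, Cdkn1a, E2f2), Cdca7 among them although it works with a chromatin remodeller. The other 3 share only a prefix: Cdc73 belongs to a transcription elongation complex, Kif1b is a motor that carries cargo along microtubules, and Rpap1 binds RNA polymerase II.

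The list itself was made from these arrays. Per its header, it keeps probe sets with an uncorrected p under 0.05 in an analysis of variance over the 4 groups, so every gene below had passed a test of these same groups. Counts of these genes that differ between groups are therefore a description of the list and no independent evidence of a difference. In the authors' deposited table their p-values ran from 0.00119 for Fancl to 0.04995 for E2f2, the gene nearest the threshold, with Haus5 at 0.0473, while the probe sets just outside the threshold carry no names here.

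All 8 arrays came from bone marrow cells of C57/BL6 mice, 2 arrays in each of 4 groups with replicate numbers 2 and 3. WT_MIG cells were miR-223+/+, and KO_MIG, KO_223mut and KO_starmut cells were mir-223-/-. Cells of every group, the wild type included, had been prestimulated for 2 days and then exposed together to MSCV-Hoxa9-pgk-neomycin and MSCV-Meis1-IRES-YFP virus, shed by producer cells that had been irradiated with 4000 cGy. They were sorted for YFP and kept under neomycin at 1.4 mg/ml. Hoxa9 and Meis1 are homeobox transcription factors that together keep marrow progenitors growing and can lead to myeloid leukaemia in mice. The second part of a group name is read here as the further vector of that arm, which the labels do not spell out. The header of the gene list writes the star mutant as KO_223*mut, and the star is the older mark for the passenger strand of a microRNA. The labels do not say how many mice or cultures the arrays stand for, so the spread behind each p-value is that between arrays and may be technical.

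The guide and passenger strands of miR-223, in which the vectors differ if that reading of their names holds, are shown here with their seeds, bases 2 to 8, in capitals, since the seed is the part that pairs with target messages. Both sequences are from RefSeq on build GRCm38.p6, from the forward strand of chromosome X.
miR-223-3p, the guide strand, chrX:96242884-96242905: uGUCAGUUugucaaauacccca
miR-223-5p, the passenger strand, chrX:96242842-96242864: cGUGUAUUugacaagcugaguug
The seeds of the strands differ.

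A dividing cell copies its DNA in S phase and shares it out in mitosis. Origins are marked by the origin recognition complex, unwound by a helicase that needs Cdc45, and copied by polymerases held on DNA by a clamp that the replication factor C complex loads. Breaks and crosslinks are mended by homologous recombination and the Fanconi anaemia pathway, and chromosomes are moved by kinetochores on spindle microtubules. E2F transcription factors drive many genes of S phase and mitosis, which rise in proliferating marrow progenitors and fall as granulocytes and macrophages mature. miR-223 is most abundant in that mature myeloid lineage.

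Values are log2 signals from which the median of the 8 arrays was taken for each probe set, so 0 marks the middle array of a gene and no level can be compared between genes. The probe set that names Mir223 (F630028O10Rik|Mir223) read -0.98 and -1.07 on the WT_MIG arrays and between -0.08 and 0.15 on the knockout arrays. The arrays labelled wild type were thus the lower ones for that probe set. No source used here says whether its probes lie within the deleted part, so this probe set is no check of the genotypes, which are taken from the labels throughout. RNA was taken from whole cultures, so fewer cells of a type and less RNA per cell cannot be told apart.

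In 15 of the 24 genes WT_MIG had the lowest mean of the 4 groups, and in 4 it had the highest. Both WT_MIG arrays lay below all 6 knockout arrays in 12 genes, against 6.06% of the 28844 probe sets with complete values and 23.9% of the other 1057 single-symbol probe sets of the list. Both lay above all 6 in 2 genes, E2f2 and Kif1b, against 4.75% of all probe sets and 18.3% of the rest of the list. The groups overlapped in the other 10 genes. The 12 genes that were lower in the wild type were 3 of replication (Orc2l, Orc3l, Pold2), 1 of repair (Rad54b), 5 of segregation (Cdca8, Cenpi, Cenpn, Haus1, Ncapd3), 2 of cell cycle control (Cdc25a, Cdca7) and Rpap1. The median gap between the 2 replicates of a group in these genes was 0.0206 in WT_MIG, 0.0512 in KO_MIG, 0.0485 in KO_223mut and 0.0283 in KO_starmut. In the rest of the single-symbol list it was 0.0328, 0.0424, 0.0396 and 0.0339, and over all probe sets 0.0974, 0.0954, 0.101 and 0.0884, in the same order of groups. The test that made the list favours small gaps between replicates. Gaps smaller than those over all probe sets are therefore no result about these genes.

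**Figure D1:**
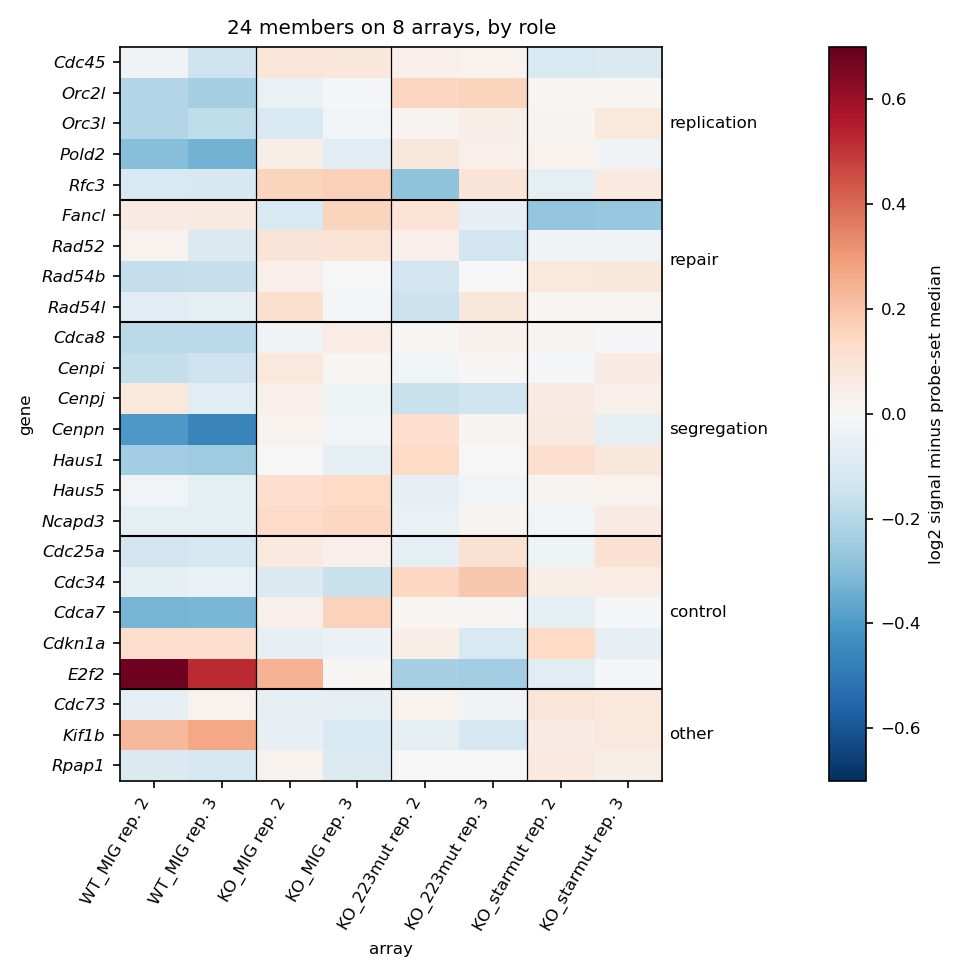
Colour gives the log2 signal minus the probe-set median for 24 genes (rows, by role) on 8 arrays (columns, by group and replicate). The WT_MIG columns are mostly blue, with both arrays below all 6 knockout arrays in 12 genes, and E2f2 and Kif1b run the other way.

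Among genes of cell cycle control, E2f2, an E2F transcription factor, gave the widest span. Its values were 0.68 and 0.52 in WT_MIG, 0.25 and 0.0074 in KO_MIG, -0.23 and -0.25 in KO_223mut, and -0.08 and -0.0074 in KO_starmut. Both wild-type arrays were above all 6 knockout arrays, and both KO_223mut arrays were the lowest of the 8. In the mean of the 3 knockout arms E2f2 was lower than in WT_MIG by a log2 difference of -0.65 ± 0.08 (SE; 95% interval -0.84 to -0.47), or 1.57-fold, with an adjusted p of 0.0101 by limma over all 28853 probe sets (6 knockout and 2 wild-type arrays).

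Cdca7, which works with the chromatin remodeller Hells, ran in the opposite direction. It read -0.32 on both WT_MIG arrays, 0.03 and 0.16 in KO_MIG, 0.02 and 0.0063 in KO_223mut, and -0.07 and -0.0063 in KO_starmut. The wild-type arrays were the lowest, and the lowest knockout array was one of KO_starmut. Against WT_MIG the mean of the knockout arms rose by 0.35 ± 0.06 (95% interval 0.22 to 0.48), or 1.27-fold, with an adjusted p of 0.042 by limma. Cdc25a, the phosphatase that switches on cyclin-dependent kinases, lay at -0.13 and -0.12 in WT_MIG and from -0.07 to 0.11 on the knockout arrays. Cdkn1a, the kinase inhibitor p21, overlapped between wild type (0.12 on both arrays) and knockout (-0.11 to 0.14). Neither passed the test in any comparison.

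Cdc34, the enzyme that passes ubiquitin to SCF ligases, differed among the knockout arms rather than between genotypes. Its values were -0.06 and -0.05 in WT_MIG, -0.10 and -0.16 in KO_MIG, 0.14 and 0.19 in KO_223mut, and 0.05 and 0.05 in KO_starmut. The KO_MIG arrays were the lowest and the KO_223mut arrays the highest, with no overlap between the 4 groups.

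All 5 replication genes had a higher mean in the knockout arms than in WT_MIG, by 0.09 to 0.33 on the log2 scale, where 53.3% of all probe sets were higher. Pold2, a subunit of DNA polymerase delta, read -0.30 and -0.33 in WT_MIG, 0.04 and -0.08 in KO_MIG, 0.08 and 0.04 in KO_223mut, and 0.03 and -0.03 in KO_starmut. The wild-type arrays stood below all the others. The difference of 0.33 ± 0.06, 1.25-fold, had an adjusted p of 0.0524 by limma and passed the test only with the replicate number as a block (0.0147).

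Orc2l, a subunit of the origin recognition complex, read -0.20 and -0.23 in WT_MIG, -0.05 and -0.0078 in KO_MIG, 0.15 and 0.16 in KO_223mut, and 0.01 and 0.0078 in KO_starmut. Its 4 groups did not overlap, with WT_MIG lowest and KO_223mut highest. The mean of the knockout arms exceeded WT_MIG by 0.26 ± 0.05 (adjusted p 0.07 by limma, 0.0294 with the block). Orc3l, another subunit of that complex, lay at -0.20 and -0.18 in WT_MIG and from -0.11 to 0.07 on the knockout arrays.

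Cdc45, part of the replicative helicase, gave -0.02 and -0.15 in WT_MIG, 0.09 and 0.08 in KO_MIG, 0.04 and 0.02 in KO_223mut, and -0.11 and -0.10 in KO_starmut. The KO_starmut arrays fell between the wild-type pair, so genotype did not separate this gene. Rfc3, a subunit of the clamp loader, read -0.10 and -0.11 in WT_MIG and from -0.28 to 0.17 in the knockout arms. Its KO_223mut arrays were -0.28 and 0.09, the widest gap between replicates of the set at 0.37.

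Segregation genes held the other gene that passed. Cenpn, a kinetochore protein that reads the centromeric nucleosome, read -0.40 and -0.46 in WT_MIG, 0.02 and -0.02 in KO_MIG, 0.12 and 0.02 in KO_223mut, and 0.06 and -0.06 in KO_starmut. All 6 knockout arrays lay above both wild-type arrays, and the 3 knockout arms overlapped. Cenpn rose by 0.46 ± 0.06 (95% interval 0.32 to 0.60), or 1.37-fold, with an adjusted p of 0.0167 by limma (0.0031 with the block).

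Haus1, a subunit of the augmin complex that branches spindle microtubules, read -0.25 on both WT_MIG arrays, -0.0016 and -0.07 in KO_MIG, 0.14 and 0.0016 in KO_223mut, and 0.12 and 0.08 in KO_starmut. The wild-type arrays were again the lowest. Its difference of 0.29 ± 0.06 had an adjusted p of 0.088 by limma and of 0.0274 with the block. Haus5, of the same complex, gave -0.02 and -0.06 in WT_MIG, 0.12 and 0.14 in KO_MIG, -0.06 and -0.02 in KO_223mut, and 0.02 and 0.02 in KO_starmut. The KO_MIG arrays lay above the other 6 and the KO_starmut arrays came next, while WT_MIG and KO_223mut overlapped.

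Cenpj, a centriole protein, read 0.07 and -0.08 in WT_MIG, 0.04 and -0.04 in KO_MIG, -0.16 and -0.14 in KO_223mut, and 0.06 and 0.04 in KO_starmut. Its KO_223mut arrays were the lowest of the 8. The kinetochore gene Cenpi, Cdca8 (borealin, of the chromosomal passenger complex) and Ncapd3 (of condensin II) had WT_MIG arrays between -0.19 and -0.06 and knockout arrays between -0.05 and 0.15. None of these 3 passed the test, with or without the block.

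Of the 4 repair genes, 1 was separated by genotype. Rad54b, a translocase of homologous recombination, lay at -0.16 on both WT_MIG arrays and from -0.14 to 0.08 in the knockout arms. The recombination genes overlapped between genotypes, Rad52 with 0.02 and -0.10 in WT_MIG and -0.13 to 0.10 in the knockout arms, and Rad54l with -0.08 and -0.07 and with -0.15 to 0.11. Fancl, the ubiquitin ligase of the Fanconi pathway, read 0.06 on both WT_MIG arrays, -0.11 and 0.16 in KO_MIG, 0.10 and -0.06 in KO_223mut, and -0.27 on both KO_starmut arrays. The KO_starmut arrays were the lowest, and the KO_MIG pair was 0.26 apart.

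Of the 3 genes that share only a prefix, Kif1b resembled E2f2 in having its highest values in the wild type. It read 0.23 and 0.27 in WT_MIG, -0.06 and -0.10 in KO_MIG, -0.07 and -0.12 in KO_223mut, and 0.06 and 0.07 in KO_starmut. The difference of -0.29 ± 0.05 had an adjusted p of 0.0622 by limma (0.0265 with the block). Cdc73 overlapped between genotypes, at -0.07 and 0.03 in WT_MIG and from -0.06 to 0.09 in the knockout arms, and Rpap1 lay at -0.10 and -0.12 in WT_MIG and from -0.09 to 0.07 in the knockout arms.

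**Figure D2:**
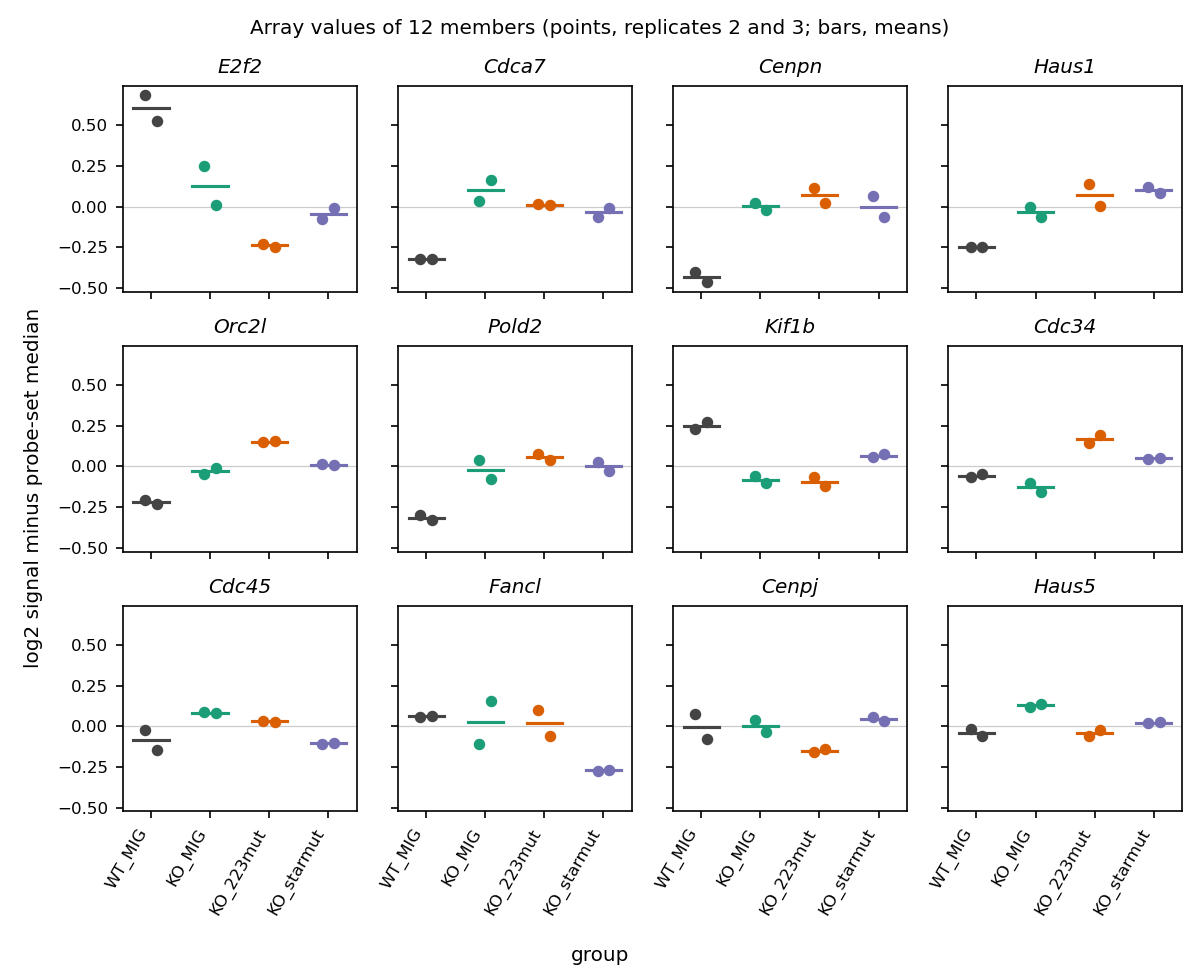
Points are the 2 arrays of each group and bars their means, as log2 signal minus the probe-set median, for 12 genes. WT_MIG stands apart in E2f2, Cdca7, Cenpn, Haus1, Orc2l, Pold2 and Kif1b, whereas Cdc34, Cdc45, Fancl, Cenpj and Haus5 separate mainly among the knockout arms.

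The comparison of the 3 knockout arms together with WT_MIG called 3 of the 24 genes at an adjusted p under 0.05, with Cenpn and Cdca7 higher and E2f2 lower. Over all probe sets 0.915% were called, 0.308% higher and 0.607% lower. The groups used by this comparison also chose the list, so nothing is read from the difference between these shares. With the replicate number as a block 7 genes passed, 5 higher (Orc2l, Pold2, Haus1, Cdca7 and Cenpn) and 2 lower (E2f2 and Kif1b), where 2.85% of all probe sets did, 1.12% higher and 1.73% lower. At an unadjusted p under 0.05, 10 genes were higher and 2 lower by limma, against 9.28% of all probe sets in either direction. In the rest of the single-symbol list 219 of 1057 were higher and 215 lower. The median difference was 0.12 in the 24 genes, 0.02 in the rest of the single-symbol list and 0.0065 over all probe sets.

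These calls rest on few arrays. Without WT_MIG replicate 2 or replicate 3 none of the 24 passed (0 genes), and without KO_MIG replicate 2 or 3 only E2f2 did (1 gene). Without any other single array E2f2 and Cenpn passed and Cdca7 did not, with adjusted p-values for Cdca7 of 0.0545 to 0.339 over the 8 omissions.

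**Figure D3:**
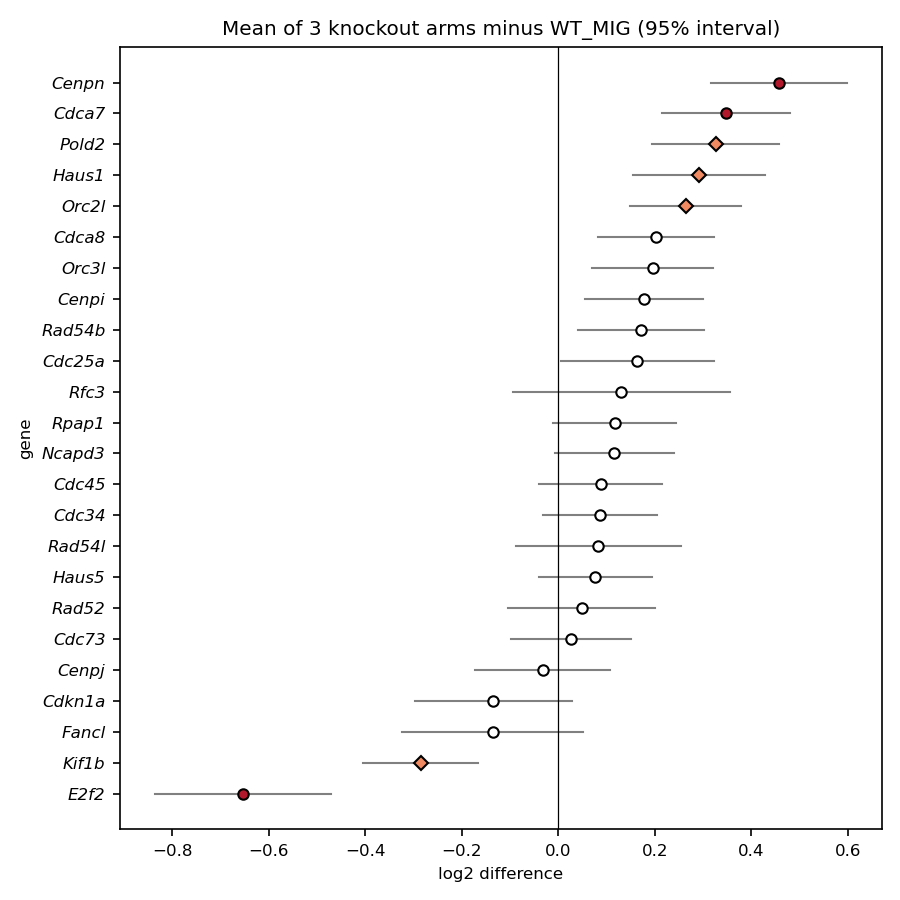
Points are the log2 difference of the mean of 3 knockout arms minus WT_MIG for 24 genes, with 95% intervals from limma. Filled circles passed at an adjusted p under 0.05 (E2f2, Cdca7, Cenpn), diamonds passed only with the replicate block (Pold2, Haus1, Orc2l, Kif1b), and open circles passed neither.

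In KO_MIG against WT_MIG, the comparison with 2 arrays on each side, none of the 24 genes passed (0 genes, against 0.135% of all probe sets). With the block 2 genes did, Cenpn (0.44 ± 0.07, adjusted p 0.126 by limma without and 0.0211 with it) and Cdca7 (0.42 ± 0.07, 0.126 and 0.0274), both higher, where 0.960% of all probe sets passed and 0.364% passed as higher. E2f2 had a difference of -0.48 ± 0.10, with adjusted p-values of 0.175 and 0.0598. At an unadjusted p under 0.05, 11 genes were higher and 2 lower in KO_MIG by limma, against 5.58% of all probe sets, 2.96% higher and 2.63% lower. In the rest of the single-symbol list 163 of 1057 were higher and 132 lower. The 7 segregation and 5 replication genes all had differences above 0, though Cenpj by only 0.0019 ± 0.07. Above 0 lay 54.0% of all probe sets and 58.9% of the rest of the single-symbol list. The medians were 0.20 in segregation and 0.19 in replication genes, 0.03 in the rest of that list and 0.0078 over all probe sets. This comparison and the one before it share the WT_MIG and KO_MIG arrays.

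No gene passed in the comparisons among knockout arms, KO_223mut or KO_starmut against KO_MIG and KO_starmut against KO_223mut, with or without the block (0 genes). Of all probe sets 0% passed without it, and 0.00347% passed with it in the last of these comparisons. At an unadjusted p under 0.05 these comparisons held 5, 4 and 3 of the 24 genes by limma, against 4.06%, 4.20% and 4.71% of all probe sets. Of the other 1057 single-symbol probe sets of the list, 82 were higher and 128 lower in the first of these comparisons. In the second 48 were higher and 173 lower, and in the third 67 were higher and 146 lower. In KO_223mut against KO_MIG the medians of the 24 genes and of all probe sets were -0.02 and 0.0068.

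Cdc34 had the lowest p there, with a difference of 0.29 ± 0.06 (95% interval 0.15 to 0.44, unadjusted p 0.0017, adjusted p 1.0 by limma). E2f2 differed by -0.36 ± 0.10 (unadjusted p 0.00571 by limma), in addition to its difference between KO_MIG and WT_MIG. In the same comparison Orc2l differed by 0.18 (unadjusted p 0.0197 by limma), Haus5 by -0.17 (0.0277) and Ncapd3 by -0.15 (0.0482). For Cdc34, KO_starmut also lay above KO_MIG, by 0.18 (unadjusted p 0.0223 by limma).

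In KO_starmut, Fancl lay below both other knockout arms, by -0.29 ± 0.10 in each comparison (unadjusted p 0.0181 against KO_MIG and 0.0191 against KO_223mut, by limma). Cdc45 differed from KO_MIG by -0.19 (unadjusted p 0.0249 by limma). Cenpj was higher in KO_starmut than in KO_223mut by 0.20 ± 0.07 (unadjusted p 0.0302 by limma). Kif1b lay higher in KO_starmut than in KO_MIG by 0.15 and than in KO_223mut by 0.16 (unadjusted p 0.0498 and 0.0371 by limma). None of these values passed after adjustment over all probe sets. The 3 comparisons share arrays, so their values are not independent of each other.

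**Figure D4:**
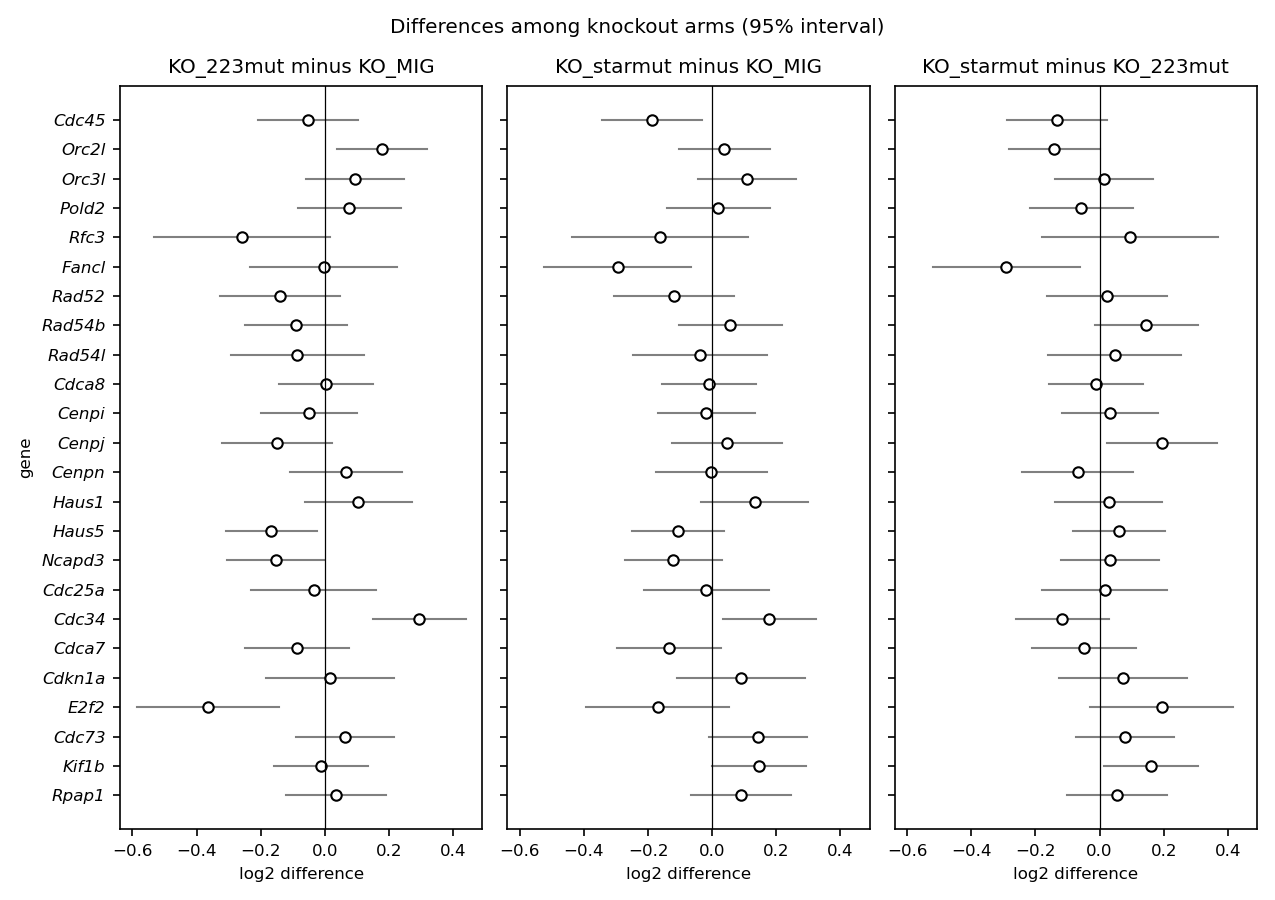
Points are log2 differences between knockout arms for 24 genes, with 95% intervals from limma, in 3 panels for KO_223mut minus KO_MIG, KO_starmut minus KO_MIG and KO_starmut minus KO_223mut. No point passed after adjustment, and the farthest from 0 are E2f2 at -0.36 and Cdc34 at 0.29 in the first panel and Fancl at -0.29 in the others.

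Promoters were read from RefSeq on build GRCm38.p6, 250 bases before to 50 after each start, for the 22 genes with an entry (29 promoters). The E2F site, searched on both strands as TTTCCCGC, TTTGGCGC, TTTGCCGC or TTTCGCGC, stood in 5 of the 29 (17.2%), those of Orc3l, Rfc3, E2f2, Cdc25a and Cdca7, and in 2.26% of all 32851 promoters. The CHR of late cell cycle genes, searched as TTTGAA or TTCGAA on both strands, stood in 24.1% against 19.2%. The CCAAT box, searched as CCAAT on both strands, stood in 51.7% against 37.4%. The 4 windows below are those of the 3 genes that passed and of Rfc3, whose promoter holds 2 E2F sites. Capitals mark the E2F sites in the first 3 windows and, for Cenpn, the CCAAT box and the CHR, both as read on the opposite strand.
E2f2, chr4:136172244-136172323, forward strand: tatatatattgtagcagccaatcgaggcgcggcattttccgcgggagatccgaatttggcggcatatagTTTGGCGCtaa
Cdca7, chr2:72476112-72476191, forward strand: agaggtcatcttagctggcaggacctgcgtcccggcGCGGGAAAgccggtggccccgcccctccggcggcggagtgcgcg
Rfc3, chr5:151651170-151651249, reverse strand: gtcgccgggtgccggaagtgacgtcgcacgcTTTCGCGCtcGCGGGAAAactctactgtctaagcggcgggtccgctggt
Cenpn, chr8:116921689-116921768, forward strand: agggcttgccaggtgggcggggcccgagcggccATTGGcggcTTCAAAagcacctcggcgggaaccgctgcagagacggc
No marked motifs overlap in these windows. The E2F site of E2f2 reads TTTGGCGC and stood in 1 of the 2 promoters of that gene, and that of Cdca7 reads GCGGGAAA, on the opposite strand. A link between these sites and the differences between genotypes was not tested. A match of letters is a description of the window and not evidence that a factor binds there.

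Other genes of the same pathways were drawn from 216 symbols outside the prefixes, of which the single-symbol probe sets of the list name 16. Probe sets with several symbols were not searched for these genes or for the cell type markers below. None passed in any of the 5 comparisons by limma, with or without the block. At an unadjusted p under 0.05 KO_MIG against WT_MIG held 6 higher and 1 lower, against 2.96% and 2.63% of all probe sets. Of the 1057 single-symbol probe sets other than the 24 genes, 163 were higher and 132 lower. Of the 16, 15 lay above 0 and 1 below in KO_MIG against WT_MIG, with a median of 0.12. In the mean of the knockout arms 13 of them lay above and 3 below, also with a median of 0.12. Above 0 lay 54.0% of all probe sets in the first comparison and 53.3% in the second, and 58.9% and 53.7% of the rest of the single-symbol list. The nuclease Exo1 differed by 0.23 in the first comparison and 0.19 in the second, and Skp2, the substrate receptor of an SCF ligase, by 0.26 and 0.23. Cep55, which acts at the end of cell division, differed by 0.33 and 0.17. Rev3l, the catalytic subunit of a polymerase that copies past damage, lay below 0 in both, at -0.20 and -0.19. These 16 probe sets passed the authors' test as the 24 had.

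A further 6 probe sets of the list carry a symbol with one of the prefixes beside another symbol (Rfc4, Cdk17, Kif4, Cdc123 and Mcm3ap among them). They were left out because their signal cannot be given to 1 gene.

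Of 16 symbols used for neutrophils and macrophages (Adgre1 and Emr1 among them name the same gene) 2 are named by single-symbol probe sets of the list. Both fell in the mean of the knockout arms. Itgam, the integrin CD11b, fell by a log2 difference of -0.81 ± 0.09 (adjusted p 0.0097 by limma). Cd68, a lysosomal protein of macrophages, fell by -0.36 ± 0.05 (adjusted p 0.0324 by limma). Their summed values ran from 0.76 to 1.02 in WT_MIG, from -0.10 to 0.05 in KO_MIG, from -0.76 to -0.72 in KO_223mut and from -0.15 to 0.0097 in KO_starmut. Whichever single array was left out, Cd68 no longer passed (adjusted p up to 0.316 by limma), and without WT_MIG replicate 2 Itgam did not (0.0672). Itgam also differed within the knockout genotype, by -0.56 in KO_223mut against KO_MIG, where its difference in KO_MIG against WT_MIG was -0.59. Both markers had passed the authors' test on these arrays, and no single-symbol probe set of the list names the other 14 symbols. Of the 24 genes, E2f2 and Kif1b also had their highest mean in WT_MIG and their lowest in KO_223mut. The reverse, with WT_MIG lowest and KO_223mut highest, held for Orc2l, Pold2, Cdca8 and Cenpn. In most of these genes the place of KO_223mut rests on small differences. Against KO_MIG it differed by -0.01 in Kif1b, 0.0029 in Cdca8, 0.07 in Cenpn and 0.08 in Pold2 (unadjusted p 0.30 to 0.96 by limma). In 15 of the 24 genes WT_MIG had the lowest mean. The highest mean lay in KO_MIG in 9 of the 24, in KO_starmut in 6, in KO_223mut in 5 and in WT_MIG in 4. The part of cell maturity in the differences of the 24 genes was not tested.

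Of 8 stem and progenitor markers 3 are named by single-symbol probe sets of the list (Flt3, Ly6a and Lmo2), and they went different ways. Flt3, a receptor of early progenitors, lay at 0.47 and 0.13 in WT_MIG and from -0.31 to 0.11 in the knockout arms, so both wild-type arrays were the highest. Lmo2, a transcription cofactor of stem cells, lay at -0.16 and -0.25 in WT_MIG, below all knockout arrays (-0.03 to 0.22). Ly6a, the surface protein Sca-1, read 1.15 and 1.14 in KO_starmut and at most 0.19 on any other array. The summed values of the 3 ran from 0.07 to 0.27 in WT_MIG, from -0.59 to -0.11 in KO_MIG, from -0.23 to -0.04 in KO_223mut and from 0.81 to 0.90 in KO_starmut. These sums mostly follow Ly6a and give no common level of the 3 markers. In KO_MIG, where the sum was lowest, Ly6a read -0.85 and -0.43 but Lmo2 0.20 and 0.22. In KO_starmut, where it was highest, Flt3 read -0.31 and -0.26. None of the 3 passed in any comparison by limma, with or without the block, the lowest adjusted p without it being 0.0708 for Ly6a in KO_starmut against KO_MIG. Single-symbol probe sets of the list name 1 of the 7 B lineage markers used (Igll1) and 2 of 7 fibroblast markers (Dcn and Mmp2). They name 0 of 7 of T and NK cells and 0 of 10 of erythroid cells and megakaryocytes. Igll1 read from -0.11 to -0.04 in WT_MIG, from 0.23 to 0.28 in KO_MIG, from 0.04 to 0.09 in KO_223mut and from -0.15 to -0.06 in KO_starmut. For the fibroblast pair the sums ran from -0.06 to 0.07 in WT_MIG, from 0.32 to 0.35 in KO_223mut and from -0.18 to -0.01 in KO_starmut, with both KO_MIG arrays at -0.03. With the block, Igll1 was higher (adjusted p 0.0455 by limma) and Itgam lower (0.0239) in KO_MIG than in WT_MIG. With centred values no marker can be said to be absent, so the labelled tissue could not be checked against levels.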

How the data were processed

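RNA from bone marrow cells was measured on 8 Affymetrix Mouse Gene 1.0 ST arrays. The authors deposited log2 signals, summarised by RMA16 with annotation na31 on build mm9 per the file headers and centred on each probe set's median (checked within 7.02e-07 of 0). Their list gives an uncorrected p-value from an analysis of variance with unequal variances, restricted per the file headers to probe sets whose raw signal lay from percentile 20 to percentile 100. Array values were taken from the value table, and 9 blank cells, all on KO_starmut replicate 3, were left missing and touch no gene described. The number of arrays limits the precision.

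All 28853 probe sets were fitted with limma 3.58.1 (lmFit and eBayes, R 4.3.3, statmod 1.5.0) with the 4 groups as terms, 4 residual and 3.67 prior degrees of freedom, for 5 comparisons with two-sided p-values and Benjamini-Hochberg adjustment over all probe sets at 0.05. The fit was tested on simulated data. Over all probe sets, arrays that share a number departed from their groups' means together (correlations of 0.360 to 0.533 over the 6 pairs of groups). Over the genes described alone the pairing was uneven. KO_223mut gave -0.182 with KO_MIG, 0.171 with WT_MIG and 0.611 with KO_starmut. KO_starmut gave 0.035 with KO_MIG and 0.089 with WT_MIG, and KO_MIG with WT_MIG gave 0.332. The replicate numbers were taken to pair the arrays from the values of all probe sets, not from the labels or these genes. Blocked values stand beside results they change.

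Genes given array by array are those that passed a comparison, with or without the block, had 1 of the 4 lowest p-values in one, or had the lowest F-test p of their role. The others are given as ranges. From each other list the called genes, or the 2 with the lowest p, could be named. The genes, lists and rule were chosen with earlier results of these data known. Alternatives were the block, arrays centred on their median, robust eBayes, probe sets of a symbol averaged, only the arrays compared, the genes without the 3 of another role, and each array left out. All 24 symbols matched a RefSeq gene, 2 under another current symbol. Some genes of the lists are not reported here.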

Additional observations from a re-analysis of the deposited data

How the results depend on the processing

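With the replicate block, the genes called rose from 0 to 2 in KO_MIG against WT_MIG and from 3 to 7 in the mean of the knockout arms against WT_MIG, and calls over all probe sets from 39 to 277 and from 264 to 822; in KO_starmut against KO_223mut 1 probe set, none of the 24 genes, was called. The block changed no other count of the 24 genes. With only the arrays compared, KO_MIG against WT_MIG called 5 probe sets. Leaving out each array in turn gave 0 to 2 of the 24 genes and 47 to 226 probe sets in the mean of the knockout arms, and 4 to 22 probe sets in KO_MIG against WT_MIG. The median of the 24 genes then ran from 0.144 to 0.184 (KO_MIG against WT_MIG), 0.0974 to 0.13 (mean of the knockout arms), -0.0288 to 0.0225 (KO_starmut against KO_MIG) and 0.000232 to 0.0403 (KO_starmut against KO_223mut). Without the 3 genes of another role the median in KO_223mut against KO_MIG was -0.0499, against -0.0231. Signs turned on leaving out an array for uncalled values of Cdkn1a (-0.0564 to 0.0878 in KO_223mut against KO_MIG), Mmp2 (-0.11 to 0.0159 in KO_starmut against KO_MIG and -0.115 to 0.0227 in the mean of the knockout arms), Dcn (-0.0357 to 0.00371) and Itgam (-0.207 to 0.0222) in KO_starmut against KO_MIG, and Lmo2 (-0.203 to 0.011) in KO_starmut against KO_223mut. The cause was not tested. No called gene of the 24 changed direction. A filter on dim probe sets was not run, since the centred values hold no level above background, and signal over background limits what can be said of dim genes.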
